A study of Mus musculus with 6 samples.

Results

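The genes described here encode the enzymes, transporters and membrane proteins of fatty acid oxidation in mitochondria and peroxisomes. The list held 34 named genes. A gene entered when the array annotation assigned at least 1 probe set to its symbol alone, and 33 of the 34 did, among 18193 genes so named on the array. Only Cpt1b did not enter, because its 1 probe set carries several symbols, and it was not analysed here. The 33 genes had 64 probe sets, and the brightest by mean over all hearts stood for each gene. The data are expression arrays (Affymetrix) of 6 samples of heart tissue RNA from male mice aged 5 to 6 months and fasted for 6 hours, 3 labelled wild type and 3 labelled Cav1 knockout, with 1 array each. The knockout hearts lack caveolin-1, the coat protein of the plasma membrane pits called caveolae. The labels give no strain, do not say which part of Cav1 was deleted and do not state that the samples are from separate mice. The p-values therefore cover only the spread among the 6 arrays, which may be technical.

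The adult heart takes most of its energy from long-chain fatty acids. An activated fatty acid crosses into the mitochondrion as a carnitine ester, is shortened in turns of a spiral of dehydrogenation, hydration, dehydrogenation and cleavage, and passes electrons to the respiratory chain through an electron transfer flavoprotein. Malonyl-CoA blocks the entry step. Peroxisomes shorten very long and branched chains and hand the products on to the mitochondrion. In a fast, supply of fatty acids to the heart rises and genes of this pathway are driven by the receptor PPAR alpha.

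The sample labels were checked on Cav1 and on tissue markers. Cav1 stood at a normalised intensity of 3849, 3836 and 4216 in wild-type hearts and 118, 101 and 101 in the knockout hearts, a log2 fold change of -5.02. Of 8 cardiomyocyte markers 0 passed the test, with log2 fold changes from -0.047 to 0.019, and none had an unadjusted p under 0.05 in limma either. Their summed intensity was 134718 to 136909 per heart. Most of these probe sets lie at the top of the range of the arrays, where several share the same normalised values, so these values show that the markers were present and little about whether they differed. Markers of some other cells differed more. At the array-wide threshold 4 of 6 endothelial, 2 of 6 macrophage and 2 of 6 fibroblast markers were higher in knockout hearts. The share over all genes tested was 2.97%, and of 2 skeletal muscle markers tested 0 passed. In bulk tissue, fewer cells of a type and less RNA per cell cannot be told apart.

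Of the 32 fatty acid oxidation genes bright enough to test, 5 fell in knockout hearts, 0 rose and 27 did not pass (limma, Benjamini-Hochberg adjusted p under 0.05 over all 22519 probe sets tested). The 5 were Acacb, Eci1, Etfb, Abcd3 and Pex11a, so 15.6% of the genes tested were lower, against 1.07% of all 11486 genes tested, and 2.97% of all genes were higher. Each fall was small, 9.14% to 18.5% of the wild-type intensity. The fold change was below 0 for 28 of the 32 genes, against 54.2% of all genes. In 20 of the 32 all 3 knockout hearts lay below all 3 wild-type hearts, against 15.2% of all genes. In 0 of the 32 did they lie above, against 13.5% of all genes. At an unadjusted p under 0.05, 17 of the 32 were lower and 0 higher, against 11.0% of all genes that were lower. Of all genes tested 2536 had such a p, and 1260 of those were lower. The median log2 fold change was -0.10, and -0.014 over all genes tested. The list was chosen with earlier results of these data known, so these comparisons describe it and do not test it. The oxidation genes are brighter than most genes tested. In the upper 25% of probe sets 5 of 31 were lower, against 2.47% of all 6852 genes there. All 3 knockout hearts lay below all 3 wild-type hearts in 20, against 17.1% of all genes there.

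These calls depend on the scaling and on single arrays, while the direction of the 5 genes did not change. With the intensities as deposited 0 of the 32 genes passed (smallest adjusted p 0.064 in limma, with 16 lower at an unadjusted p under 0.05), and with each array centred on its median 0 passed (smallest adjusted p 0.114, with 6 lower unadjusted). The balance of all calls moved too: 341 genes were higher and 123 lower as quantile normalised, 375 and 40 as deposited, and 378 and 27 when centred on the median. Relative to the median of all genes, the median of the oxidation genes was -0.087 as quantile normalised and -0.12 under both other scalings. Without wild type replicate 1, wild type replicate 3, knockout replicate 1 or knockout replicate 2, 0 passed, and 10, 15, 11 and 11 genes were lower at an unadjusted p under 0.05 in limma. Acacb and Eci1 alone passed without wild type replicate 2, and Crat alone without knockout replicate 3. The median log2 fold change stayed between -0.11 and -0.089 when single hearts were left out.

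**Figure D1:**
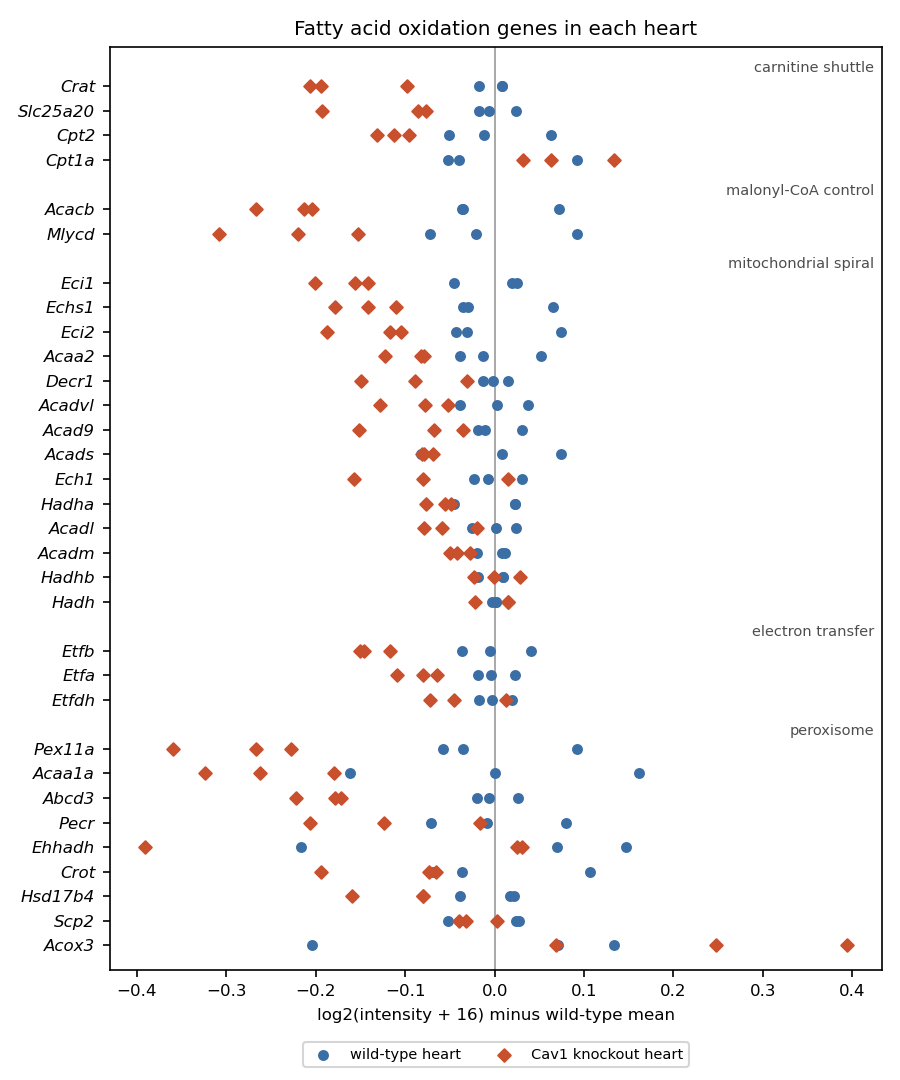
Each row is 1 of the 32 tested fatty acid oxidation genes, and each point is 1 heart (circles wild type, diamonds Cav1 knockout), as log2(normalised intensity + 16) minus the wild-type mean of that gene. In 20 rows all 3 knockout hearts lie to the left of all 3 wild-type hearts, and in none do they lie to the right of them.

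The hearts of each group lay close together across these genes. The mean deviation of the 32 genes from the average of all hearts was 0.052, 0.032 and 0.062 on the log2 scale in wild-type replicates 1, 2 and 3, and -0.045, -0.041 and -0.059 in the knockout hearts. No single knockout heart held most of the lowest values. The lowest value of a gene fell in knockout replicates 1, 2 and 3 for 9, 10 and 9 genes, and in a wild-type heart for the other 4. The highest value was in wild type replicate 1 for 16 genes and in wild type replicate 3 for 10. Wild type replicate 1 also had the lowest array weight in limma, 0.40, against 0.75 to 1.58 for the other arrays. The spread within a group was narrow, with a median SD of 0.043 over these genes and 0.079 over all genes tested. Of these genes 31 lie in the brighter upper 25% of probe sets, and the SDs were not matched for brightness. Acadm had the smallest within-group SD, 0.014, and Ehhadh the largest, 0.22.

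Most fat markers also stood lower in the knockout hearts, though 1 passed the test. Ucp1, the uncoupling protein of brown fat, stood at a normalised intensity of 83.2, 314 and 802 in wild-type hearts and 20.9, 20.7 and 106 in knockout hearts. Adiponectin, Adipoq, read 225, 380 and 816 in wild-type hearts and 65.1, 53.5 and 262 in knockout. Both were highest in wild type replicate 3, and in both the groups overlap through wild type replicate 1 and knockout replicate 3. Cidea, a lipid droplet protein of brown fat, read 809, 915 and 1270 in wild-type hearts and 708, 706 and 772 in knockout, without overlap. The 5 brown fat markers summed to 1219 to 2484 in wild-type and 956 to 1150 in knockout hearts, and the 4 white fat markers with a probe set of their own to 386 to 1001 and 169 to 417. Of the 5 fat markers bright enough to test, 1 passed, Slc36a2, which fell by 0.56. Among all 9 fat markers with a probe set of their own, the knockout hearts lay below all wild-type hearts in 4 (Cidea, Slc36a2, Cidec and Lep), above in 0, and the groups overlapped in 5. The share below over all 18193 genes, without the filter, was 12.3%. Cidec and Lep were too dim to test, with Lep at 9.70 to 12.3 in all hearts. The brown fat sums, of which Cidea was the largest part, thus separated the groups narrowly, and the white fat sums overlapped. The mean log2 deviation of the 3 tested brown fat markers was -0.10 in wild type replicate 1 and -0.12 in knockout replicate 3. The oxidation genes had 0.052 and -0.059 in these hearts. Brown fat is rich in the enzymes described here, and its part in their lower values was not tested.

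**Figure D2:**
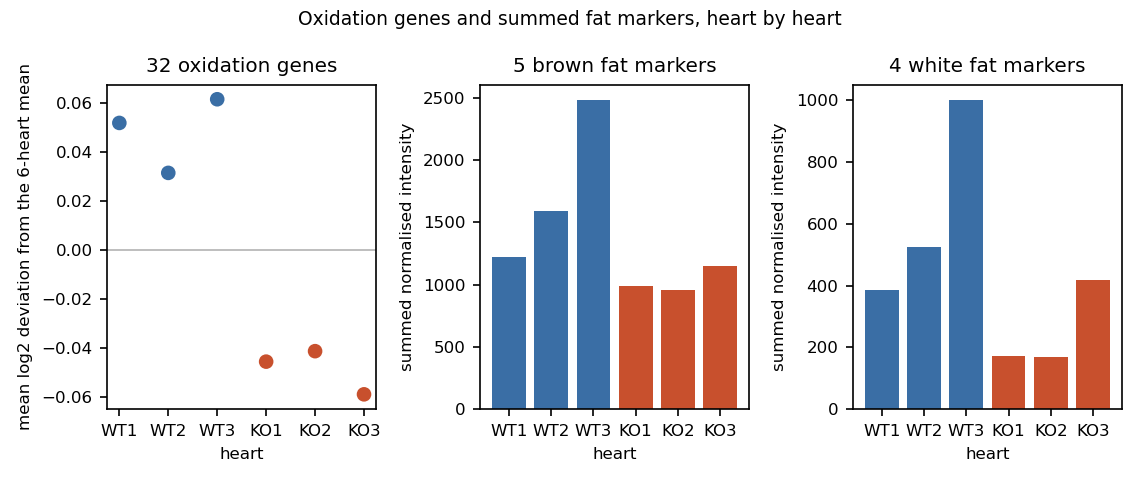
The left panel plots the mean log2 deviation of the 32 oxidation genes from their 6-heart mean, and the bars give the summed normalised intensity of the 5 brown and the 4 white fat markers, for each wild-type (WT, blue) and knockout (KO, red) heart. The oxidation genes separate the groups, as do the brown fat sums by a narrow gap, while the white fat sums of WT1 and KO3 are in the reverse order.

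Sums of endothelial, macrophage and fibroblast markers also separated the groups, though not every marker did. All 3 knockout hearts lay above all wild-type hearts in 4 of 6 endothelial, 6 of 6 macrophage and 3 of 6 fibroblast markers. The share over all genes was 13.5%. The 6 endothelial markers summed to 2594 to 2708 in wild-type and 3325 to 3866 in knockout hearts, the 6 macrophage markers to 4214 to 4897 and 5287 to 5447, and the 6 fibroblast markers to 9231 to 10783 and 11154 to 13544. Their part in the lower values of the oxidation genes was not tested.

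The start regions of the oxidation genes were searched for motifs that several of them hold. RefSeq windows (assembly GRCm38.p6) were found for 27 of the 34 genes, 28 windows in all, and the 250 bases before each start site were used. Shown are the windows of the called genes with 1 listed start site, and that of Hadhb, which it shares with Hadha. Capitals mark CCAAT and GGGCGG on either strand, so that ATTGG is the first motif on the other strand. CCAAT was in 12 of the 28 windows (42.9%) and in 33.9% of all 32851 windows of this length, and GGGCGG in 18 (64.3%) and in 32.7%. The windows lie at chr5:114165268-114165517 (Acacb, plus strand), chr17:24426433-24426682 (Eci1, plus), chr7:43443822-43444071 (Etfb, plus), chr7:79743132-79743381 (Pex11a, minus) and chr5:30155003-30155252 (Hadhb, plus).
Acacb: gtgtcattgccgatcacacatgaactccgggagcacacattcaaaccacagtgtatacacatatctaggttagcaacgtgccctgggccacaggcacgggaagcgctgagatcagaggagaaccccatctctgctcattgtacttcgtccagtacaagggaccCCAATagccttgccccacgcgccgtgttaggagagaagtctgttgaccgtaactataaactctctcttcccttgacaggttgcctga
Eci1: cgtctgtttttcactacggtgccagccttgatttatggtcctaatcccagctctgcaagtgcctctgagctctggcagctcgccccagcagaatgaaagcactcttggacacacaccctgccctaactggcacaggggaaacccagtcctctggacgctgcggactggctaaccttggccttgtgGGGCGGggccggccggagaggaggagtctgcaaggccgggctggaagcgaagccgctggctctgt
Etfb: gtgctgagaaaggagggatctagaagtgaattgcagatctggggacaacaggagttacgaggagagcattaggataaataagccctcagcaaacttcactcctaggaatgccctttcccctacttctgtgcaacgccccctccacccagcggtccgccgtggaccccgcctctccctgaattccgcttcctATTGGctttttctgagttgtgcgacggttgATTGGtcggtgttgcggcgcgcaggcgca
Pex11a: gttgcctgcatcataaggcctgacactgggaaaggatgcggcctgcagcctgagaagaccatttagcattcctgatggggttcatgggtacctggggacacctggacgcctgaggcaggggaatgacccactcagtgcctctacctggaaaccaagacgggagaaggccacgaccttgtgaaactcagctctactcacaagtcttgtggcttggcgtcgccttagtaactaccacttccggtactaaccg
Hadhb: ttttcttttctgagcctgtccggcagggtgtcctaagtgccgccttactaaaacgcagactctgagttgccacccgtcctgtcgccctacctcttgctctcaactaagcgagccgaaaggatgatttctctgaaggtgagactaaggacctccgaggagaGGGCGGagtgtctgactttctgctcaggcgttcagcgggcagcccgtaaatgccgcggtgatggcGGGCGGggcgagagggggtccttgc
Base composition set these windows apart from the average: the median GC content was 59.6% in the 28 windows and 52.4% in all, with a median of 14 and 6 CG pairs. AGGTCA, the core site of many nuclear receptors including PPAR alpha, was in 5 of the 28 windows (17.9%), those of Acadm, Acadvl, Cpt1a, Echs1 and Scp2, and in 14.0% of all. None of these 5 genes was called. The TATAAA box was in 1 of the 28 (3.57%) and in 12.4% of all. AGGTCA repeated with 1 base of any kind between the copies, and TCAAGGTCA, the element of the oestrogen-related receptors, were in 0 of the 28 windows and in 0.033% and 0.387% of all. A match is of letters only, and says nothing of binding.

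Among genes of the carnitine shuttle, 0 of the 4 tested passed, and the median log2 fold change was -0.12. Over all genes tested 1.07% were lower and 2.97% higher. Crat, the carnitine acetyltransferase that frees CoA inside the mitochondrion, came nearest, at 1774, 1774 and 1742 in wild-type hearts and 1539, 1526 and 1647 in knockout. The groups did not overlap, and the log2 fold change was -0.17 (SE 0.042, limma adjusted p = 0.0739). Its weaker probe sets stood at -0.28 and -0.13. Cpt2, the inner-membrane transferase that remakes the acyl-CoA, read 3414, 3241 and 3155 in wild-type hearts and 2983, 3058 and 3022 in knockout hearts, again without overlap (log2 fold change -0.11, SE 0.038, limma adjusted p = 0.151). Slc25a20, the carrier that swaps acylcarnitine for carnitine, had a log2 fold change of -0.12 (-0.16 at its weaker probe set) and no overlap. Cpt1a, the malonyl-CoA-sensitive entry enzyme of liver type, stood on the other side at 0.076, with overlapping groups, a 95% interval of -0.057 to 0.21 and both weaker probe sets also above 0. The muscle form of that enzyme is the gene not analysed.

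Both genes that set malonyl-CoA had fold changes below 0, against 54.2% of all genes. Of the 2, 1 passed, as lower, against 1.07% of all genes. Acacb encodes the acetyl-CoA carboxylase on the mitochondrial surface, whose malonyl-CoA restrains the entry of fatty acids. It read 1431, 1432 and 1544 in wild-type hearts and 1271, 1264 and 1217 in knockout. All knockout hearts were below all wild-type hearts, and Acacb fell by 0.23 (SE 0.045, limma adjusted p = 0.0339). Mlycd, malonyl-CoA decarboxylase, removes the same inhibitor. It read 763, 679 and 705 against 642, 611 and 574, without overlap, and its log2 fold change of -0.23 was short of the threshold (SE 0.061, limma adjusted p = 0.0883). The enzyme that makes the inhibitor and the one that destroys it thus had like fold changes. Of 3 further genes that act on malonyl-CoA 0 passed, also 0 at an unadjusted p under 0.05 in limma, and the groups overlapped in all 3: Acaca, the cytosolic carboxylase, had -0.18, and Prkaa1 and Prkaa2, catalytic subunits of the kinase that inhibits the carboxylases, had 0.23 and -0.056.

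Of 14 genes of the mitochondrial spiral 1 passed, as lower, 12 had a fold change below 0 and the median was -0.080. In 9 all knockout hearts lay below all wild-type hearts. The shares over all genes tested were 1.07% lower, 54.2% below 0 and 15.2% with such a separation. Eci1, the isomerase that moves double bonds of unsaturated chains into place, read 3572, 3414 and 3586 in wild-type hearts and 3160, 3191 and 3062 in knockout, and fell by 0.17 (SE 0.035, limma adjusted p = 0.0421). Its partner Eci2, found in both organelles, had -0.14, and Decr1, the dienoyl-CoA reductase for the same unsaturated chains, had -0.090 (-0.19 at its weaker probe set), both without overlap and short of the threshold. Echs1, the short-chain hydratase, stood at 3964, 3977 and 4249 against 3679, 3760 and 3586, a log2 fold change of -0.14 (SE 0.038, limma adjusted p = 0.0852) with no overlap.

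The acyl-CoA dehydrogenases, which open each turn, were all short of the threshold. Acadvl for very long chains had a log2 fold change of -0.086 and Acadm for medium chains -0.040, both without overlap. Acads for short chains had -0.076 and Acadl for long chains -0.053, both with overlapping groups. Acad9, which also serves complex I assembly, had -0.085 without overlap as quantile normalised. It had -0.014 as deposited and 0.0044 centred on the median, so its sign depends on the scaling. Acaa2, the thiolase that ends the turn, had -0.095, with -0.11 and -0.12 at its weaker probe sets, and all 3 probe sets had groups without overlap. Ech1, a dienoyl-CoA isomerase, had -0.074 with overlapping groups.

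Neither subunit of the trifunctional protein, which joins the later steps for long chains, passed the test. The alpha subunit Hadha read 6249, 5962 and 6249 in wild-type hearts and 5833, 5945 and 5917 in knockout, without overlap. Its log2 fold change was -0.061 (95% interval -0.13 to 0.0083). The beta subunit Hadhb had 0.0020 (95% interval -0.055 to 0.059), with overlapping groups. The start sites of Hadha and Hadhb face away from each other with 272 bases between them, and their windows share 228 bases. Hadh, the dehydrogenase for short and medium chains, gave opposing readings. Its brightest probe set had 0.0026 (95% interval -0.050 to 0.055), while a weaker one read 7640, 7370 and 7451 in wild-type hearts and 6711, 6831 and 6872 in knockout, and fell by 0.14 (SE 0.028, limma adjusted p = 0.0356). The brightest probe set of Hadh is of a type (suffix x_at) that can also bind other transcripts. Hadhb had such a probe set as well, weaker and at 0.13. The signs of Hadh and Hadhb at their brightest probe sets turned with the scaling. Both probe sets lie high in the range of the arrays, and hearts shared normalised values there, as also at dimmer probe sets such as that of Crat. Wild type replicates 1 and 2 both read 12907.5 for Hadh, and replicates 1 and 3 both 11926.7 for Hadhb. As deposited, Hadh read 12980, 13026 and 13039 in wild-type hearts and 12801, 12895 and 12591 in knockout, without overlap. The deposited values of Hadhb overlapped. With signs that turned with the scaling, these 2 probe sets show little about whether the groups differed.

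Among genes of electron transfer, 1 of 3 passed, as lower, against 1.07% of all genes, and the median was -0.084. Etfb, the beta subunit of the electron transfer flavoprotein that takes electrons from the acyl-CoA dehydrogenases, read 6614, 6270 and 6405 in wild-type hearts and 5790, 5808 and 5927 in knockout. It fell by 0.14 (SE 0.031, limma adjusted p = 0.0483), the narrowest of the calls. The alpha subunit Etfa was 6711, 6524 and 6588 against 6318, 6127 and 6249, without overlap (log2 fold change -0.084, SE 0.028, limma adjusted p = 0.148). Etfdh, the membrane dehydrogenase that hands the electrons to ubiquinone, had -0.035 with overlapping groups (95% interval -0.11 to 0.040).

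**Figure D3:**
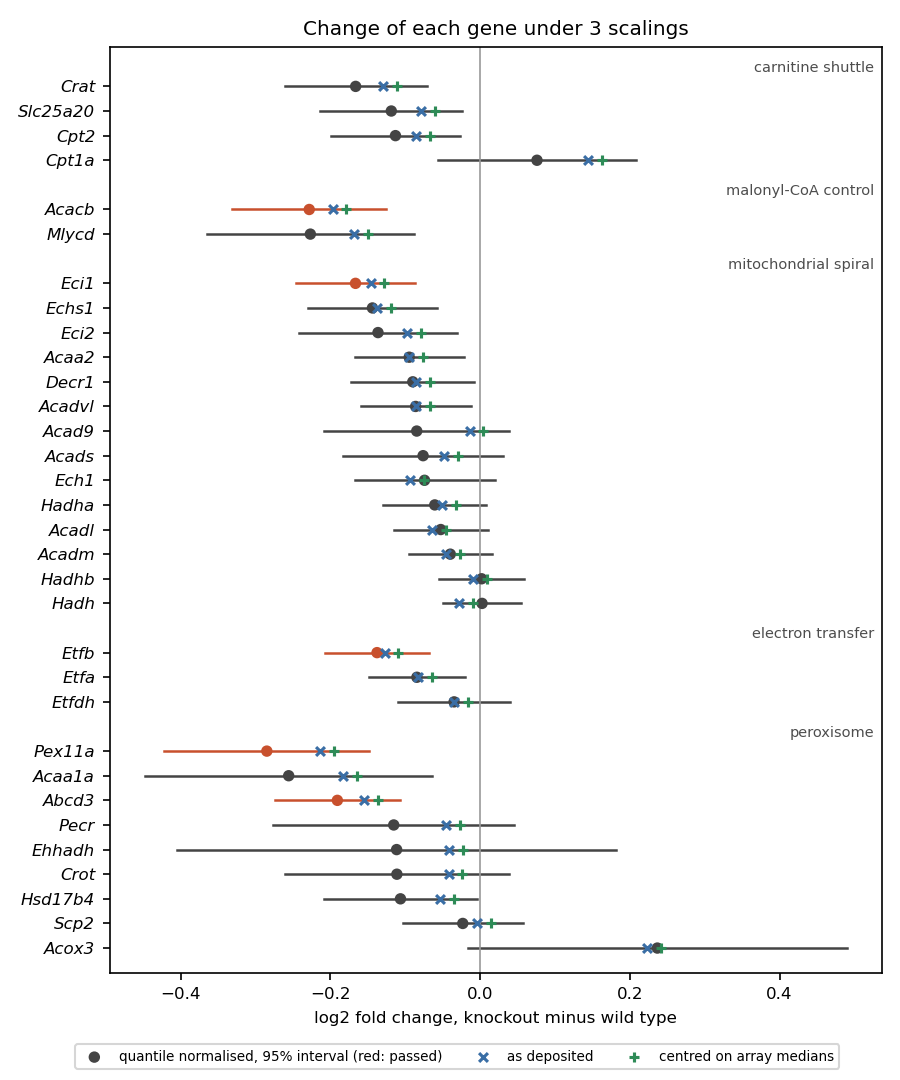
Points give the log2 fold change (knockout minus wild type) of each of the 32 genes by role, with its 95% interval from limma (red where it passed), and crosses give the same value from the intensities as deposited (blue) and centred on array medians (green). The other scalings shift most genes toward 0, and the 5 genes in red stay below 0 in all 3.

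Of 10 peroxisomal genes 9 were tested, 2 fell and 7 did not pass, against 1.07% lower over all genes tested. In 4 all knockout hearts lay below all wild-type hearts, against 15.2% of all genes. The median of the 9 was -0.11. Without knockout replicate 2 the median was -0.17, as deposited -0.046 and centred on the median -0.027. Pex11a, a membrane protein that promotes the division of peroxisomes, read 525, 584 and 533 in wild-type hearts and 464, 452 and 423 in knockout. It fell by 0.28 (SE 0.060, limma adjusted p = 0.0421), and its weaker probe set had -0.22 with overlapping groups (limma adjusted p = 0.203). Of 29 other genes tested within 1 Mb of Pex11a in the RefSeq table, 2 were lower and 0 higher. The shares over all genes tested were 1.07% and 2.97%. Hddc3 fell by 2.11 and Man2a2 by 0.61, both past the threshold. Abcd3, a transporter that brings branched and long-chain acyl groups into the peroxisome, read 1907, 1865 and 1847 in wild-type hearts and 1653, 1604 and 1660 in knockout. The groups did not overlap, and Abcd3 fell by 0.19 (SE 0.037, limma adjusted p = 0.030).

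The enzymes of the peroxisomal spiral were more scattered. Acaa1a, the peroxisomal thiolase, read 338, 267 and 300.4 in wild-type hearts and 237, 248 and 263 in knockout, -0.26 on the log2 scale with a limma adjusted p of 0.147, while a weaker probe set stood at 0.089. Its brightest probe set too has the suffix x_at. Hsd17b4, the multifunctional enzyme for branched chains, had -0.11 without overlap. Ehhadh, the multifunctional enzyme for straight chains, had -0.11 with overlapping groups, a range of 199 to 261 in wild-type hearts and 175 to 240 in knockout, and a 95% interval of -0.41 to 0.18. Crot, which makes carnitine esters of shortened chains for export, had -0.11, Pecr, a trans-enoyl-CoA reductase, -0.12 and the sterol carrier protein gene Scp2 -0.023 (0.014 centred on the median), all overlapping. Acox3, an oxidase for branched chains, had the highest value of the list, 0.24 (SE 0.11, limma adjusted p = 0.276), with a range of 39.1 to 53.6 in wild-type hearts and 50.6 to 67.4 in knockout near the lower limit of the probe sets tested. Abcd2, a relative of Abcd3, was too dim to test, at 35.4 to 49.2 in all hearts.

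The medians by role ran from -0.080 in the spiral to -0.23 in malonyl-CoA control, which has 2 genes, and the differences between roles were not tested. None of the 34 genes lies on the chromosome of Cav1, per the RefSeq table.

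**Figure D4:**
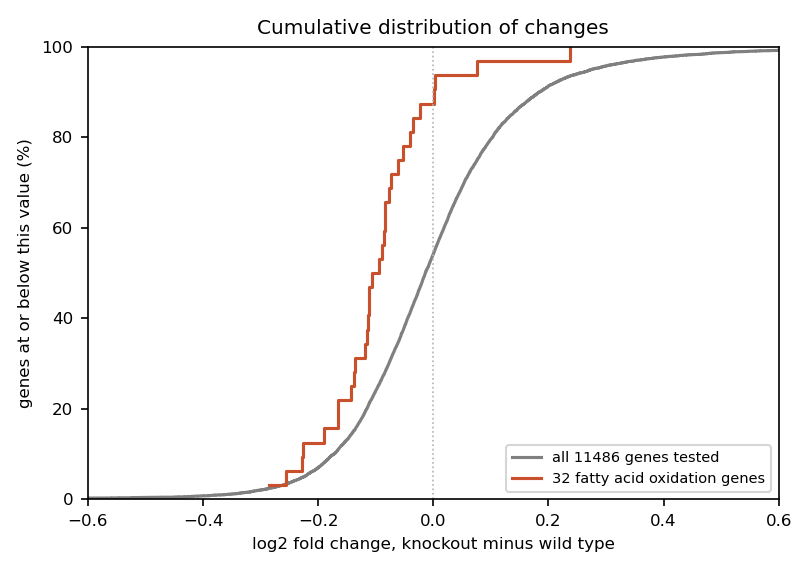
Cumulative share of genes (percent) at or below each log2 fold change, for all 11486 genes tested (grey) and the 32 fatty acid oxidation genes (red), between -0.6 and 0.6. The red curve lies to the left of the grey one over most of its range, with medians of -0.10 and -0.014, and 4 genes lie above 0.

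Other genes of the pathway were mostly lower too, but some stood on the other side. Of 54 genes of acyl activation, malonyl-CoA control, further mitochondrial and peroxisomal oxidation and peroxisome assembly, 44 were tested, 3 fell, 0 rose and 41 did not pass, and the median was -0.10. The share that fell, 6.82%, stands beside 1.07% of all genes. At an unadjusted p under 0.05 in limma, 16 of 20 were lower, against 17 of 17 oxidation genes and 1260 of 2536 among all genes. All 3 knockout hearts lay below all wild-type hearts in 19 of the 44 and above in 3, against 15.2% and 13.5% of all genes. Hsd17b10, a mitochondrial dehydrogenase of short and branched chains, read 1840, 1810 and 1943 in wild-type hearts and 1526, 1608 and 1586 in knockout, and fell by 0.24 (SE 0.043, limma adjusted p = 0.0211). Nudt7, a peroxisomal enzyme that breaks down CoA, read 1504, 1523 and 1417 against 1234, 1270 and 1273 and fell by 0.23 (SE 0.043, limma adjusted p = 0.0257). Acot13, a thioesterase that releases free fatty acid from acyl-CoA, fell by 0.18 (SE 0.036, limma adjusted p = 0.0356). As deposited and when centred on the median these 3 did not pass, and Acsl5 alone did, as higher. Among 12 tested peroxisome assembly genes 0 passed, and the median was -0.073. At an unadjusted p under 0.05 in limma 4 were lower, against 11.0% of all genes.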

How the data were processed

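RNA of 6 hearts was labelled from 2 ug with the Affymetrix One-Cycle kit, per the labels' protocols, and the submitters' processing notes list GCOS 1.4 without a role. The deposited table holds 1 intensity per probe set and array on a linear scale, for 45101 probe sets. The authors' summary and scaling steps are not given in the sources used here. Trimmed means (2% at each end) of the deposited intensities ran from 154.6 to 167.6, with wild type replicate 1 lowest and the others from 163.1, so quantile normalisation (limma 3.58.1, R 4.3.3) was applied. Values are log2(intensity + 16), which understates changes of dim genes. Without 64 control probe sets, the 22519 in the upper 50% by mean were tested (lowest mean 5.92 on the log2 scale). The difference between groups (knockout minus wild type) was estimated with limma's lmFit and eBayes, trend included, with Benjamini-Hochberg adjustment over all probe sets tested and a threshold of 0.05. The fit was tested on simulated data with changes larger than those of the members called, so that test does not bear on their calls. Intervals are 95% intervals from the fit.

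Names came from the platform annotation. Members, gene lists and roles were chosen with earlier results of these data known. Full values are given for members that passed and, in each role, the 2 with the smallest p; other members by value, range or fold change. With 3 arrays a group, their number limits the precision. The alternatives were other scalings, pseudocounts and filters, array weights, no trend, the mean of the probe sets of a gene, and each heart left out.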

Additional observations from a re-analysis of the deposited data

How the results depend on the processing

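The fold changes of the 10 members given in full kept their sign in all 150 refits under 15 alternatives, and Cav1 passed in every one. The calls did not hold as well: 5 members passed with a pseudocount of 1 or 64, with the upper 25% of probe sets and with the mean of the probe sets of a gene (there Crat in place of Pex11a), 6 with array weights, and 0 as deposited, when centred on array medians, with no filter (smallest limma adjusted p 0.0507, 17 lower at an unadjusted p under 0.05) and with no trend (smallest 0.0738, 10 lower unadjusted). Leaving out 1 heart gave 0 to 2 members lower. Other pathway genes lower numbered 0 as deposited, when centred and with no trend, 5 with array weights, and 0 to 3 with 1 heart left out, and higher 1 (Acsl5) as deposited and when centred and 0 to 1 with 1 heart left out. Members with all knockout hearts below all wild-type hearts numbered 12 when centred, against 5.39% of all genes there. The median log2 fold change of members was -0.081 as deposited and -0.063 centred, that of the carnitine shuttle -0.083 and -0.064 (-0.13 to -0.092 with 1 heart left out), that of the peroxisomal genes -0.046 and -0.027 (-0.17 to -0.097), and centred that of malonyl-CoA control was -0.16 and that of the spiral -0.056. Fewer arrays remain when a heart is left out, and more probe sets are tested without the filter; the cause of the other changes was not tested. No paired analysis was possible because the titles of the knockout samples carry no replicate numbers shared with the wild-type samples.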

Other observations

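The acyl-CoA synthetases, which activate fatty acids before either organelle takes them up, had fold changes on both sides of 0. Acsl5 stood at a normalised intensity of 324, 287 and 317 in wild-type hearts and 361, 345 and 377 in knockout hearts, without overlap, for a log2 fold change of 0.22 (SE 0.064, limma adjusted p = 0.112), and it passed as higher with the intensities as deposited and when centred on array medians. Acsl4 had 0.26 (limma adjusted p = 0.185) and Acsl3 0.22 (limma adjusted p = 0.245), short of the threshold. Acsl6 had -0.20 and Acsl1 was not analysed here.

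Different probe sets of 1 gene did not always read alike. Of 20 weaker tested probe sets of 14 members, 15 had a fold change below 0 and 11 were lower than the brightest probe set of their gene. For Scp2 the 2 brightest probe sets had log2 fold changes of -0.023 and 0.039, and the 2 dimmer ones -0.18 and -0.20.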
